A study of Mus musculus with 4 samples.

Results

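The few-CpG promoters examined here are annotated start sites of protein-coding genes around which enhanced reduced representation bisulfite sequencing (ERRBS) of mouse liver covered only a handful of cytosines. They were chosen as the transcription start sites (TSSs) of curated coding RefSeq transcripts on the autosomes, 1 per gene and always the transcript with the lowest accession number, that had within 500 bp 3 to 8 cytosines with a coverage of 10 reads or more in every one of the 4 livers and no other gene's TSS within 2000 bp. This gave 1316 of 20021 genes. Of the other genes, 2155 had a neighbouring TSS, 6773 had 0 common cytosines in the window, 477 had 1 or 2, and 9300 had 9 or more and are called CpG-richer promoters below. The livers came from 4 male mice of 6 to 8 weeks, fed a normal diet. Mixed-1 and Mixed-2 were on an undefined background that included C57BL/6J and other strains, B6-1 and B6-2 were C57BL/6, and the strains lived at different institutions, so strain, housing and the lower depth of the Mixed libraries cannot be told apart. The methylation of a promoter in a mouse was the mean of its cytosines, each being the percent of reads that stayed C after bisulfite treatment, and 4 values given in a row are those of Mixed-1 and Mixed-2 and then of B6-1 and B6-2. A promoter was called methylated above 80%, unmethylated below 20% and intermediate between these bounds by its mean over the 4 mice. A level of a single cytosine or CpG given without a mouse is likewise a mean over the 4 mice.

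Cytosine methylation at CpG dinucleotides is laid down and copied by DNA methyltransferases, and at promoters it is associated with stable silencing. Most promoters of genes that every cell uses lie in CpG islands, dense runs of CpGs that stay free of methylation whether or not the gene is transcribed. Promoters outside islands have lost most of their CpGs over evolution, serve many tissue-restricted genes, and are often methylated in tissues that do not use the gene. Per the labels the DNA was cut with MspI, which recognizes CCGG, a site that is denser in islands than outside them. The whole liver was used, which is mostly hepatocytes beside endothelial, stellate, bile duct and blood cells. A level is a share of reads, so a promoter methylated in part of the cells and one methylated on part of the DNA copies of every cell cannot be told apart, and 5-hydroxymethylcytosine is read as methylated.

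The sequences below are from the RefSeq copy of the GRCm38 (mm10) reference and show promoters that stand for the patterns in the data (chosen after the values were seen), each as the 200-base stretch of the 500 bases before the TSS that holds the most covered CpGs, read 5′ to 3′ in the direction of the gene. Capitals mark the CpGs with a cytosine covered in all 4 mice. Zwint (chr10:72654646-72654845, plus strand), a kinetochore protein gene, had 8 of its 12 CpGs in this stretch covered and read 0% at each in every mouse. Taf7l2 (chr10:116114196-116114395, minus strand), a relative of a general transcription factor subunit, was the opposite, with its 3 covered CpGs between 95.3% and 98.9%. Crygn (chr5:24757849-24758048, minus strand), a lens crystallin, and Ctsw (chr19:5468740-5468939, minus strand), a protease of killer lymphocytes, were among the promoters nearest to 50%.
Zwint: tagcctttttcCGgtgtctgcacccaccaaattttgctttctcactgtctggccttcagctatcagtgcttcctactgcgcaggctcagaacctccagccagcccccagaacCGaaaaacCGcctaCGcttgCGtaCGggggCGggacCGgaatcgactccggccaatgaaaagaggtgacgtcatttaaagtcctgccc
Taf7l2: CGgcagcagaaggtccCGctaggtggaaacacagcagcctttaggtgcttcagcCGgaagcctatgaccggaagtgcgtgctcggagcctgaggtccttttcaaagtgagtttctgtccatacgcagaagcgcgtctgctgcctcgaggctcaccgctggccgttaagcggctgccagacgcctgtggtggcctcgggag
Crygn: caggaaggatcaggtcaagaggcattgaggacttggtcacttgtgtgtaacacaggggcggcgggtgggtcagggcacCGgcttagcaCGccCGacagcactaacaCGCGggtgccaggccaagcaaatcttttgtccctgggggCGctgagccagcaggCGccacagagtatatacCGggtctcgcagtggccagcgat
Ctsw: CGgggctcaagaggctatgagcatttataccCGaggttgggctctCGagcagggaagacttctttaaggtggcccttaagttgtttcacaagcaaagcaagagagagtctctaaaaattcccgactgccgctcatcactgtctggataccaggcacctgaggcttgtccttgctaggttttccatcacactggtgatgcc

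Trf (chr9:103230573-103230772, minus strand) encodes transferrin, the iron carrier that hepatocytes secrete, and Sult2a4 (chr7:13989873-13990072, minus strand) a bile acid and steroid sulfotransferase. They lay near the lower and the upper end of the liver gene lists. Neb (chr2:52338871-52339070, minus strand) and Nppb (chr4:147985700-147985899, plus strand), for the muscle protein nebulin and a natriuretic peptide of the heart, lay at the opposite ends of the muscle and heart list. Cck (chr9:121495695-121495894, minus strand), a gut and brain peptide hormone, and Olfr1033 (chr2:86020440-86020639, plus strand), an olfactory receptor, are genes of other tissues with unmethylated CpGs. Rbm44 (chr1:91144903-91145102, plus strand), an RNA-binding protein gene of germ cells, differed between mice.
Trf: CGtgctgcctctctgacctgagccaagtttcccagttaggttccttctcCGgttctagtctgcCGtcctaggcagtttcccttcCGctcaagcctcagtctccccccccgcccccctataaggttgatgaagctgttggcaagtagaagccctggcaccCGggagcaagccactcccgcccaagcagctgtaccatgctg
Sult2a4: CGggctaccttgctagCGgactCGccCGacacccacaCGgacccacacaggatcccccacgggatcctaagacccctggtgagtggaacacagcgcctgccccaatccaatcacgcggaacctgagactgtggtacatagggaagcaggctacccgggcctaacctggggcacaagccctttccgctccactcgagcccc
Neb: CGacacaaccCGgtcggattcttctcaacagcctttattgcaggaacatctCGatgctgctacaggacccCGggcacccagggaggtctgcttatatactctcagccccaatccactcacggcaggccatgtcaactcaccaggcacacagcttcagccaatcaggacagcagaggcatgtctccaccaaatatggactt
Nppb: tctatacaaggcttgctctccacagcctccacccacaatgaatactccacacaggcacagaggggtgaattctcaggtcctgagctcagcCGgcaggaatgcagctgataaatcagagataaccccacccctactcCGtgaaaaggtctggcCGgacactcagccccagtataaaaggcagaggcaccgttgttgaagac
Cck: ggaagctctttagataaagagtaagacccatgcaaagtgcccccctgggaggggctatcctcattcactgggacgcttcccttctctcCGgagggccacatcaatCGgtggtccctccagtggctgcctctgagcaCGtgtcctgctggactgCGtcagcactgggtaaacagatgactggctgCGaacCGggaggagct
Olfr1033: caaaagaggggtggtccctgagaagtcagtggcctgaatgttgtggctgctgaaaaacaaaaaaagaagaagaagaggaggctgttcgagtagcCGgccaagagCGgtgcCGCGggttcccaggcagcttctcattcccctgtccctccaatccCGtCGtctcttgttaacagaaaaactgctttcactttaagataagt
Rbm44: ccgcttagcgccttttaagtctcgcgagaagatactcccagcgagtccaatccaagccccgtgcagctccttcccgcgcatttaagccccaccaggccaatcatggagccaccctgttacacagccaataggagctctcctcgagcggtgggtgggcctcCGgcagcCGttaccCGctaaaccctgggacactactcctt

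Depth differed between the strains. The 7066 cytosines of the few-CpG promoters, on 6315 CpG dinucleotides, had a median coverage of 35, 38, 66 and 60 reads in the order of mice above. Summed over its cytosines, a promoter had a median of 187, 202, 336 and 315 reads, and the thinnest 31, 32, 39 and 40. A read that covers several cytosines counts once at each, in these and all later read totals of a promoter. At this depth the counting error of an intermediate promoter in 1 mouse was 3.08 points (median SD). Intervals and limits given below cover counting error only, since reads of 1 molecule cannot be recognized. Counting errors and limits of a promoter take the counts of its cytosines as independent. They are too small where 1 read covers several cytosines.

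The few-CpG promoters were not uniformly methylated. Their mean level by mouse was 28.0%, 28.3%, 27.7% and 28.0%, or 28.0% ± 0.221 (SD, n = 4). The medians were far lower, between 5.79% and 6.56%. By their mean over the mice, 792 promoters (60.2%) were unmethylated, 330 (25.1%) intermediate and 194 (14.7%) methylated. The 10-point bin from 0 to 10% alone held 702 promoters, the bins between 20 and 60% held 35 to 64 each, and those from 80 to 90% and from 90 to 100% held 109 and 85. The CpG-richer promoters had a mean of 2.39% ± 0.0298 (SD, n = 4), and 9051 of 9300 (97.3%) were unmethylated, with 169 intermediate and 80 methylated.

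**Figure D1:**
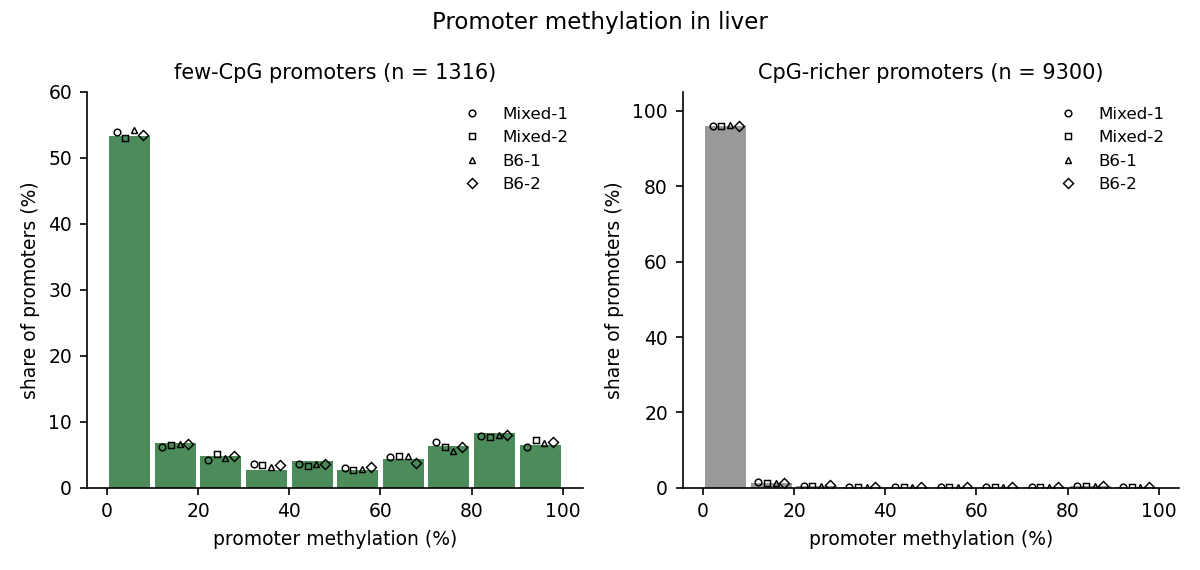
Share of the few-CpG promoters (left) and of the CpG-richer promoters (right) in 10-point bins of promoter methylation. Bars use the mean of the 4 mice and open symbols each mouse, and 53.3% of the few-CpG promoters against 96.1% of the CpG-richer ones lie in the lowest bin, with a second, lower rise of the few-CpG promoters above 70%.

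The difference between these sets was the same in kind in every liver. Few-CpG minus CpG-richer promoters was 25.6, 25.9, 25.4 and 25.6 points, a mean of 25.6 points. The share of methylated promoters differed by 13.8 points and that of unmethylated promoters by -37.2 points on average. Each of these had p = 0.125 in a two-sided exact permutation test that flips signs over the 4 mice, which is the smallest p that 4 mice allow. Here and below, this sign-flip test asks only whether the mice agree and takes no account of the spread among promoters. The size of the class differences depended on the bounds. With 10% and 90% as bounds the methylated share was higher by 6.49 points only.

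Membership is a threshold on coverage, and levels moved gradually across it. Promoters with 1 common cytosine had a mean of 52.9% (n = 196) and those with 2 a mean of 42.1% (n = 281). Just inside the rule, 204 promoters with 3 cytosines had a mean of 36.1% and 197 with 8 had 19.18%. Just outside, 156 promoters with 9 had 14.3%. The share of unmethylated promoters went from 46.6% with 3 cytosines to 73.6% with 8 and 79.5% with 9.

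The number of covered cytosines is not the number of CpGs in the DNA. The 1316 promoters had a median of 29 CpG dinucleotides in the reference sequence within 500 bp, but 89 had 60 or more and only 21 had fewer than 10, so the label describes coverage rather than a CpG-poor sequence. Methylation followed the CpG content of the sequence. The 21 promoters with fewer than 10 CpGs had a mean of 64.0%, those with 10 to 14 CpGs 62.5%, and the 186 with 15 to 19 CpGs 50.2%. The mean was 35.4% with 20 to 29 CpGs (n = 368), 17.9% with 30 to 39 (n = 258), 5.36% with 40 to 59 (n = 288) and 3.64% with 60 or more (n = 89). The order of the bands was the same in each of the 4 mice.

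**Figure D2:**
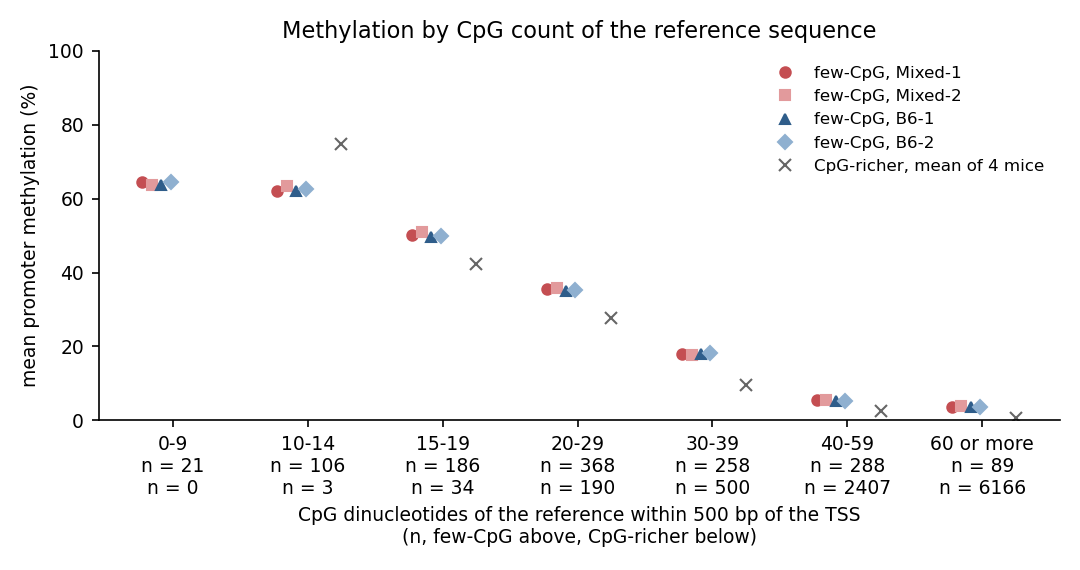
Mean promoter methylation of the few-CpG promoters in each mouse (symbols) and of the CpG-richer promoters (crosses, mean of the 4 mice) by the number of CpG dinucleotides of the reference within 500 bp of the TSS. The 4 mice overlap within each band, and the few-CpG promoters go from 62.5% at 10 to 14 CpGs to 3.64% at 60 or more.

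Within bands of CpG content the few-CpG promoters lay closer to the CpG-richer ones than over all promoters. With 20 to 29 CpGs they averaged 35.4% and the 190 CpG-richer promoters 27.8%, and with 30 to 39 CpGs 17.9% against 9.48% (n = 500). With 40 to 59 CpGs the means were 5.36% and 2.49% (n = 2407), and with 60 or more 3.64% and 0.744% (n = 6166). Below 20 CpGs there were few CpG-richer promoters, 34 with 15 to 19 CpGs and 3 with 10 to 14. The bands were set with the values known and were not tested one by one.

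The classes differed in CpG content but little in GC content. Unmethylated few-CpG promoters had a median of 37 CpGs, intermediate ones 20.5 and methylated ones 19. The median observed to expected CpG ratio was 0.514, 0.30 and 0.307, whereas the GC content was 54.2%, 53.2% and 52.2%. The sequence TATAAA, the core of the TATA box that places the start of transcription at many tissue-restricted genes, was searched on the sense strand from 40 to 16 bases before the TSS. It was present in 18 (2.27%) unmethylated, 16 (4.85%) intermediate and 11 (5.67%) methylated promoters, 3.42% of all few-CpG promoters, against 2.92% of all 20021 promoters and 1.16% of the CpG-richer ones. The 45 promoters with this match had a median methylation of 40.9% and a median of 23 CpGs, and the 1271 without it 5.73% and 29.

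The covered cytosines lay mostly downstream of the start site. The one nearest to the TSS was a median of 103 bp away in unmethylated promoters, 112.5 in intermediate and 161.5 in methylated ones. Of the 7066 cytosines, 2126 (30.1%) were upstream of the TSS, 3339 (47.3%) in an exon and 1600 (22.6%) in an intron of the chosen transcript, and the remaining 1 lay beyond a short transcript. Mean methylation was 23.6% ± 0.366 (SD, n = 4) upstream, 30.3% ± 0.157 in exons and 20.8% ± 0.242 in introns, but these groups come from different promoters. Upstream, exon and intron cytosines of methylated promoters averaged 86.8%, 89.4% and 88.1%, and those of unmethylated promoters 3.26%, 2.87% and 2.69%. The classes are bounds on the mean of these same cytosines, so close values within a class cannot show whether position matters. Over all classes the mean was 18.4% from -100 to 0 bp of the TSS. It was 32.7% from -500 to -400 bp and 30.5% from 400 to 500 bp, again in different promoters. Within the 303 promoters that had both, downstream minus upstream cytosines was 1.58, 1.63, 2.38 and 1.60 points (mean 1.798, exact sign-flip permutation test over 4 mice, p = 0.125). The difference was positive in all 4 mice, and with a window of 1000 bp it was 0.496 points.

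The function of the genes was examined with gene lists drawn from textbook knowledge of where genes are used, since gene expression was not analysed here. A set of 3 lists describes genes that hepatocytes use, with 33 few-CpG promoters, and 7 lists describe genes of other tissues, taken as silent in hepatocytes, with 165. Further lists hold genes of the basic cell machinery (17) and of the other cell types of the liver (5). The remaining 1096 promoters were in no list and had a median of 3.66%. Over all 1316 few-CpG promoters the median was 6.25%.

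Genes of the hepatocyte lists were unmethylated about as often as the few-CpG promoters as a whole. Of 33, 20 were unmethylated (60.6%, against 60.2% of all 1316), 12 intermediate and 1 methylated (3.03%, against 14.7%). Their median of 14.7% was above the 6.25% of all few-CpG promoters, with a median of 18 CpGs against 29. The mean over these genes was 18.7%, 20.2%, 18.3% and 20.2%, so the mice lay within 2 points. Few-CpG promoters are a minority of such genes, since 348 of the 509 genes of these lists had 0 common cytosines and 95 were CpG-richer promoters, with a median of 0.232%.

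Among the 16 plasma proteins, 10 were unmethylated, 6 intermediate and 0 methylated, with a median of 18.5%. Ghr, the growth hormone receptor, whose shed form circulates in plasma, read 0% in 3 mice and 0.1425% in B6-1. Trf read 0%, 0.764%, 0.542% and 0.116%. Cfb, a protease component of the alternative complement pathway, read 1.28%, 5.68%, 1.67% and 6.67% although its promoter has only 12 CpGs. All 3 were unmethylated in every mouse. At the other end, Leap2, an antimicrobial peptide of the liver, read 29.1%, 35.4%, 23.4% and 23.1%, and Fgb, the fibrinogen beta chain, 33.5%, 22.3%, 28.4% and 35.6%. Apoa4, an apolipoprotein that the intestine makes in large amounts and the liver in lesser ones, was the exception of the list at 55.9%, 73.4%, 75.7% and 71.1%. Its 4 cytosines lay in exons, 258 to 358 bp downstream of the TSS.

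Of the 15 genes of liver metabolism and transport, 9 were unmethylated, 5 intermediate and 1 methylated, with a median of 12.6%. Cpt1a, the enzyme that admits long-chain fatty acids to mitochondria, read 0 methylated of 1173 reads summed over its cytosines and the 4 mice. This allows up to 0.256% if the counts were independent. Its 8 cytosines lie 31 to 72 bp downstream of the TSS and can share reads, so the true limit may be higher. Cyp4f13, a cytochrome P450 of fatty acid oxidation, read 0 of 950 reads summed in the same way, which allows up to 0.316% if independent, with 18 CpGs. Pipox, an oxidase of the lysine pathway, read 0%, 1.39%, 0.431% and 1.09%. These promoters were free of methylation at the detection limit or near it. The upper members were Gstt1, a glutathione transferase, with 39.2%, 29.8%, 40.8% and 39.6%, and Ugt1a7c, a glucuronosyltransferase, with 43.3%, 46.1%, 33.4% and 48.8%. Sult2a4 was the only methylated gene of the 33 and read 89.6%, 95.7%, 98.9% and 96.96%. As means over the mice, each of its 5 covered CpGs was above 90%. The lowest single value was 72% in Mixed-1, at 462 bp before the TSS. Its covered CpGs lay 447 to 484 bp upstream of the TSS, as printed above.

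The hepatocyte transcription factor list had 2 members. Nr0b2, the bile acid responsive repressor SHP, read 11.1%, 9.40%, 10.4% and 10.2%. Hnf4a, a master regulator of hepatocyte genes, read 25.1%, 32.0%, 25.01% and 27.1%, with its 7 cytosines between 17.3% and 32.6%. Their ranges over the mice were 1.75 and 6.99 points. By contrast 25 genes of this list were CpG-richer promoters with a median of 0.159%.

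All 17 genes of the basic cell machinery were unmethylated, with a median of 0.280% and a highest value of 1.94% at Ndufs7, a subunit of respiratory complex I. Rps9, a ribosomal protein, read 0% in 3 mice and 0.157% in B6-1, and Ywhaz, a 14-3-3 protein, read 0% in 3 mice and 0.238% in B6-2. Psmb8, a proteasome subunit of immune cells that the list's naming pattern took in, read 0 of 549 summed reads, which allows up to 0.546% if independent. These genes had a median of 50 CpGs in the reference, so they are promoters with thin coverage rather than few CpGs. Of the 294 listed genes, 182 were CpG-richer promoters.

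The few-CpG promoters of genes of other tissues were more methylated. Of 165, 59 were methylated (35.8%), 65 intermediate and 41 unmethylated (24.8%), with a median of 70.3%. Their mean by mouse was 56.3%, 56.5%, 56.4% and 56.4%. The difference between these genes and the hepatocyte lists was 37.6, 36.3, 38.0 and 36.2 points by mouse, a mean of 37.02 points. It had the same sign in 4 of 4 mice, with p = 0.125 in the two-sided exact permutation test over mice, the smallest p possible. The spread among the genes of a list does not enter this test, which asks only whether the mice agree. The CpG content of the sets was alike (medians of 21 and 18), and among promoters of 10 to 29 CpGs the difference was 40.6 points, 113 genes of other tissues having a mean of 63.1% and 27 hepatocyte genes 22.5%. At 40 or more CpGs the sets came together. There the 8 genes of other tissues had a mean of 2.22% and the 4 hepatocyte genes 2.06%. Few-CpG promoters are also a minority of the genes of other tissues. Of the 2982 genes of these lists, 2450 had 0 common cytosines and 260 were CpG-richer promoters, with a median of 2.17%.

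**Figure D3:**
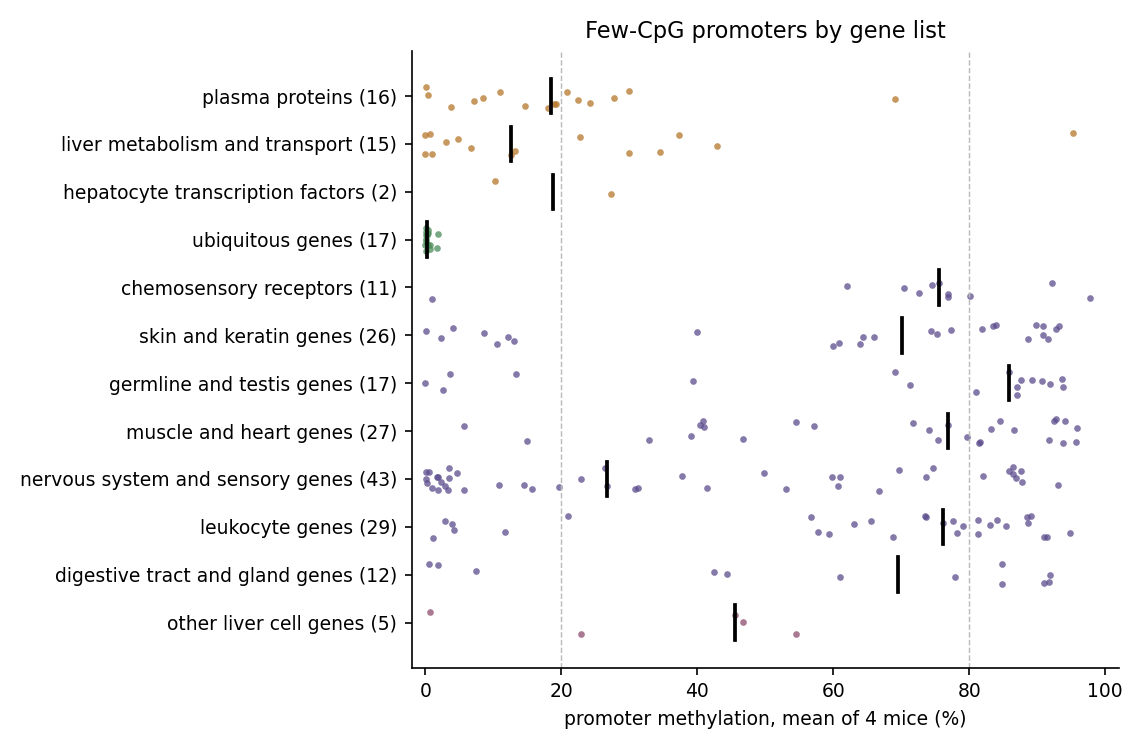
Methylation of each few-CpG promoter (points, mean of the 4 mice) by gene list, with the number of members in brackets, the median as a black bar and dashed lines at 20% and 80%. Basic machinery genes sit below 2%, hepatocyte genes mostly below 50%, and most genes of muscle, skin, germline, blood and chemosensory cells above 50%.

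Germline and testis genes had the highest median of the lists, 85.8%, with 10 of 17 methylated, 3 intermediate and 4 unmethylated. Tssk1, a kinase of developing sperm, read 90.7%, 93.4%, 96.5% and 94.5%. Stra8, the gatekeeper of meiosis, read 91.7%, 93.6%, 87.9% and 94.3%, and Sohlh1, a transcription factor of early germ cells, 92.2%, 93.7%, 96.4% and 92.6%. All 3 were methylated in every mouse, with 18 to 30 CpGs. Meiob, a meiotic recombination protein, was at the other extreme with 0 of 935 summed reads, which allows up to 0.321% if independent. It has 72 CpGs. Tekt1, a microtubule protein of sperm tails and cilia, read 0% in 3 mice and 10.5% in B6-2.

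Of 27 muscle and heart genes, 12 were methylated, 13 intermediate and 2 unmethylated, with a median of 76.9%. Neb read 95.5%, 97.8%, 97.2% and 93.0%, and the 4 upstream CpGs printed above lay between 94.1% and 98.8%. Asb5, a muscle ubiquitin ligase adaptor, read 96.5%, 94.2%, 94.8% and 97.3%. Myog, the transcription factor myogenin that starts muscle differentiation, read 95.8%, 94.7%, 95.6% and 90.5%. These 3 were near complete methylation in all livers. Nppb, with 7 upstream cytosines, read 4.81%, 5.56%, 5.09% and 7.54%. Asb4, a relative of Asb5, had a range of 21.5 points with 30.2%, 12.4%, 8.71% and 8.68%, Mixed-1 standing above the other mice.

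Skin, keratin and epithelial genes were spread over the 3 classes, with 10 of 26 methylated, 9 intermediate and 7 unmethylated and a median of 70.2%. Krt84 and Krt83, keratins of hair and nail, had means of 92.8% and 91.7%, and Krtap15, a hair matrix protein gene with 9 CpGs, 93.3%. Klk8, an epidermal protease, read 0% in 3 mice and 0.301% in B6-1, and Krt19, a keratin that bile duct cells also use, read 6.14%, 4.71%, 3.37% and 2.27%. Klk8 and Krt19 have 37 and 42 CpGs against 24 for Krt84 and Krt83, but Upk3a, a bladder protein, was at 2.34% with 25.

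Of 29 leukocyte genes, 11 were methylated, 13 intermediate and 5 unmethylated, with a median of 76.2%. Liver tissue contains leukocytes, and their part in these levels was not tested. Vpreb2, a surrogate light chain of early B cells, had a mean of 94.8%, Cd8b1, a T cell coreceptor chain, 91.4%, and Il13, a cytokine of helper T cells, 91.1%. Cxcl2 and Cxcl5, chemokines that attract neutrophils and that other cells also make, had 2.88% and 3.999%, and Tnfrsf13c, the BAFF receptor of B cells, 1.17% with 32 CpGs. Among 12 genes of the digestive tract, pancreas, kidney and other glands, the median was 69.5%. Cpb1, a pancreatic carboxypeptidase, Wap, a milk protein, and Fshr, a gonadal hormone receptor, had 91.9%, 91.8% and 91.0%. Cck had 0.595% with 16 CpGs and each of its 6 covered CpGs at or below 1.25%.

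Chemosensory receptors are the largest family of the genome but contributed 11 few-CpG promoters of 1509 genes, as 1481 had 0 common cytosines. Their median was 75.5%. Taar4, a trace amine receptor of the nose, was the most methylated of all few-CpG promoters with 97.6%, 96.8%, 99.2% and 97.3%. Its 5 cytosines lay in its exon, 402 to 442 bp downstream of the TSS. Olfr1033 was the only unmethylated member, with 0%, 1.09%, 0.806% and 1.86%. As means over the mice, its 6 upstream CpGs printed above lay between 0% and 2.27%, in a promoter of 18 CpGs.

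Nervous system and sensory genes had the lowest median of these lists, 26.8%, with 19 of 43 unmethylated, 16 intermediate and 8 methylated. Kcna4, a potassium channel, read 0% in both Mixed mice and 0.147% and 0.154% in B6-1 and B6-2, and Vip, a neuropeptide that also acts in the gut, read 4.68%, 3.64%, 5.21% and 4.87% with only 11 CpGs. Bfsp2, a filament protein of the lens, had a mean of 93.1%, Pde6c, a phosphodiesterase of cone cells, 87.8%, and Pnoc, a neuropeptide precursor, 87.7%. The list thus covered the whole range. Its members had a median of 20 CpGs, the same as the muscle and heart list. Leaving out the chemosensory list or the leukocyte list from the genes of other tissues, alternatives chosen after seeing the data, gave differences to the hepatocyte genes of 35.99 and 35.6 points.

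The list of other liver cell types had 5 members with a median of 45.5%. Col1a2, a collagen chain of stellate cells, was at 0.743%, Pdgfrb, a receptor of stellate cells, at 22.8%, Plvap and Eng, of endothelial cells, at 45.5% and 46.7%, and Cldn4, of bile duct epithelium, at 54.5%. Except for Col1a2 they lay in the intermediate class.

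The promoters were also grouped by exon number and by the words of their RefSeq names, groupings chosen after the values were seen and given without a test. Genes of 1 exon, a form typical of olfactory receptors and of gene copies made from processed messenger RNA, were 83 of the 1316. Of these, 30 (36.1%) were methylated, 25 intermediate and 28 unmethylated, against 164 (13.3%) methylated of the 1233 with more exons, and their mean was 52.0% against 26.4%. In the band of 10 to 29 CpGs the means were 70.4% (n = 44) and 42.1% (n = 616). Several are relatives of widely used genes, and those named here were picked after their values were seen, from both ends. Pabpc2, a poly(A) binding protein, was at 96.2%, with its cytosines in the exon, 307 to 429 bp downstream of the TSS. Ube2d2b, a ubiquitin-conjugating enzyme, was at 95.9%, and Hus1b, of a DNA damage checkpoint clamp, at 95.2%. Prps1l1, of phosphoribosyl pyrophosphate synthesis, was at 93.8%, and Tktl2, a transketolase relative, at 93.8%. Unmethylated 1-exon relatives were Wdr5b, of a histone methyltransferase scaffold, at 0.311%, Eif3j2, of a translation initiation factor, at 1.71%, and Hmga1b, of a chromatin protein, at 13.5%. Rpl37rt, a retrotransposed copy of a ribosomal protein gene, was at 77.6%, whereas the other 10 few-CpG promoters named as ribosomal proteins were unmethylated. Of 50 zinc finger genes 46 were unmethylated, and the only methylated one was Ctcfl (90.3%), a germ cell relative of the insulator protein CTCF. Solute carriers had a median of 29.95%, with 9 of 26 unmethylated, 13 intermediate and 4 methylated.

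A methylated start site was not always the only start site of its gene. Other curated coding transcripts of the same gene began more than 500 bp away at 29 of the 194 methylated, 57 of the 330 intermediate and 100 of the 792 unmethylated promoters. For 13 of the 29 at least 1 other start had 3 or more common cytosines, and taking the one with the most, all 13 were unmethylated there, with a median of 0.259% and a median of 72 CpGs. The same held at the other start of 22 of 30 intermediate and 50 of 57 unmethylated promoters. Taking the start with the most cytosines favours CpG-dense starts, and 97.3% of the CpG-richer promoters were unmethylated, so the 13 are near that share. Tfeb, a transcription factor of lysosome genes that was picked after its values were seen, like Hopx, was at 93.1% at the chosen start and at 0.103%, 0%, 0.127% and 0.0848% at a start 48707 bp away. Hopx, a homeodomain protein, was at 91.6% and at 0.154% at a start 19856 bp away. These values describe the annotated starts, and which start the liver uses was not tested. With the start farthest upstream in place of the lowest accession number, the sets were redrawn and the difference between few-CpG and CpG-richer promoters kept its direction.

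The exceptions to the relation with CpG content were named by rule. The methylated promoters with the most CpGs were Taf7l2 (68 CpGs, 96.7%), Sec1, a fucosyltransferase (60 CpGs, 94.4%), Msh4, a meiotic recombination protein (47 CpGs, 90.9%), 1700029P11Rik (46 CpGs, 91.3%) and Dpep3, a dipeptidase of the testis (43 CpGs, 96.5%). Sec1 read 93.5%, 95.03%, 93.4% and 95.5% over 7 exon cytosines between 86.8% and 100%. Msh4 read 93.1%, 92.7%, 90.9% and 86.8%. All 5 were above 80% in every mouse. The unmethylated promoters with the fewest CpGs were Timd2, a T cell immunoglobulin and mucin family receptor (6 CpGs, 11.8%), Ambp, the precursor of the plasma proteins alpha 1 microglobulin and bikunin (10 CpGs, 18.1%), Vip (11 CpGs, 4.60%), Plekhs1 (12 CpGs, 10.6%) and Cfb (12 CpGs, 3.82%). Ambp read 19.09%, 21.2%, 15.8% and 16.3%, and Timd2 6.23%, 12.3%, 9.20% and 19.4%, with ranges of 5.43 points in Ambp and 13.1 in Timd2. Ambp and Cfb encode plasma proteins and Vip a neuropeptide, and expression was not analysed here.

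At 72 few-CpG promoters (5.47%) every read of every mouse was unmethylated. This was so at 44 CpG-richer promoters (0.473%), which rest on more cytosines. Those with the most reads were Ddx11, a DNA helicase, Zwint, Wdr7, Hint3 and Ly96, the partner of the endotoxin receptor. Ddx11 had 2537 reads summed over its cytosines in the 4 mice, which allows up to 0.118% if these were independent. For Ly96 the sum was 2003, which allows up to 0.150% on the same terms. Ly96 had 26 CpGs, the others between 37 and 53.

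Intermediate levels were made up of different cytosine patterns. The median SD among the cytosines of a promoter was 13.5 points in the intermediate class, 5.77 in the methylated and 0.871 in the unmethylated class. Of 330 intermediate promoters, 104 had every cytosine between 20% and 80%, 121 had at least 1 cytosine under 20%, 130 had at least 1 above 80%, and 25 had both. In 81 the cytosines spanned 50 points or more. Crygn, at 50.3%, 49.8%, 50.6% and 48.8%, was nearly constant between mice, yet its 8 upstream CpGs went from 18.7% at 23 bp before the TSS to 70.1% at 112 bp before it. Dmtn, an actin-bundling protein of red cells, was at 49.1% with cytosines from 3.91% to 78.4%. Part of this span lay between the strands of the same CpG. The cytosines at 172 and 173 bp downstream of the TSS, on opposite strands, read 77.9% and 10.4%. Those at 219 and 220 bp read 3.91% and 46.7%. Why the strands differed was not tested. In Olfr323, at 62.1%, they went from 2.68% to 92.3%. Chrm1, a muscarinic receptor, was at 50.1% with cytosines from 30.2% to 86.5%. The pattern along the promoter was shared by the mice in Crygn, where the cytosine at 23 bp was the lowest in Mixed-1, Mixed-2 and B6-1 and second to that at 94 bp in B6-2.

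At most few-CpG promoters the 4 livers fell in the same class. The range over mice was under 1 point at 335 promoters (25.5%), all in the unmethylated class, and had a median of 3.74 points. Among the CpG-richer promoters it was under 1 point at 85.3% and had a median of 0.262 points. The class was the same in all 4 mice at 1165 promoters (88.5%), 759 unmethylated, 255 intermediate and 151 methylated. At 67 promoters the mice fell on both sides of 20% and at 84 on both sides of 80%. No promoter was unmethylated in 1 mouse and methylated in another. The mean absolute difference between pairs of mice was 2.96 points between the Mixed mice, 2.71 between the B6 mice and 2.81 to 3.06 points between mice of different strains, so mice of 1 strain were about as far apart as mice of different strains.

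Spread depended on the level. A range of 10 points or more was found at 238 few-CpG promoters, 18.1% of them, against 2.61% of the 12489 promoters of all genes with 3 or more common cytosines. It was found at 168 (50.9%) of the intermediate, 33 (17.0%) of the methylated and 37 (4.67%) of the unmethylated few-CpG promoters. The median SD over mice was 4.52 points in the intermediate class, with a median counting SD of 3.08, and 2.89 against 2.21 in the methylated and 0.631 against 0.599 in the unmethylated class. Intermediate CpG-richer promoters had a range of 10 points or more in 52 of 169 cases (30.8%). Their median SD over mice was 3.19 points, with a median counting SD of 1.63. The SD over mice was above the counting SD at 89.9% of them and at 73.3% of the intermediate few-CpG promoters. The count of 238 was 157 without either Mixed mouse, and 30 promoters had a range of 20 points or more.

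**Figure D4:**
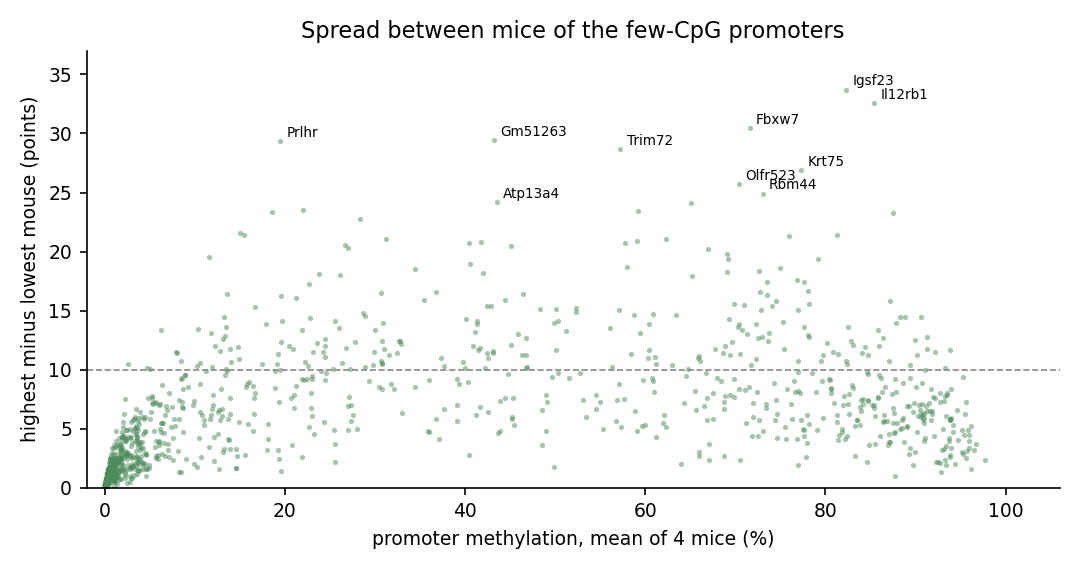
Highest minus lowest mouse against the mean methylation of each few-CpG promoter, with the 10 largest ranges named and a dashed line at 10 points. Ranges are small near 0% and near 100% and mostly larger at intermediate levels, with Igsf23 and Il12rb1 as high-level exceptions and Prlhr as a low-level one.

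The range often rested on few sites. In 96 of the 238 promoters it fell below 10 points when the cytosine with the largest range was left out, and 142 stayed at or above it. The extremes were spread over the mice. Among the 238, the highest mouse was Mixed-1 at 66, Mixed-2 at 76, B6-1 at 42 and B6-2 at 54 promoters, and the lowest was Mixed-1 at 54, Mixed-2 at 49, B6-1 at 75 and B6-2 at 60. Both Mixed mice were above both B6 mice at 62 of them (26.1%) and below at 35 (14.7%). The 326 of all 12489 promoters with such a range include these 238. Their counts were 87 (26.7%) and 51 (15.6%), or 0.697% and 0.408% of the 12489. Among the 75 CpG-richer promoters with such a range, the counts were 23 (30.7%) and 16 (21.3%).

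Igsf23, an immunoglobulin superfamily member, had the largest range, 33.7 points, with 62.5%, 83.2%, 87.2% and 96.2%. Each of its 4 intron cytosines was lowest in Mixed-1, where 16 to 17 reads covered it. Prlhr, the receptor of prolactin-releasing hormone, read 39.3%, 14.6%, 14.2% and 9.88%, and Mixed-1 was the highest mouse at each of its 4 exon cytosines. Fbxw7, a ubiquitin ligase subunit that targets cyclin E and Myc, read 87.6%, 80.2%, 61.5% and 57.1%. Both Mixed mice were above both B6 mice there, on 10 to 40 reads per cytosine and mouse. Trim72, a membrane repair protein of muscle, read 69.2%, 40.5%, 62.3% and 57.0%, and Krt75, a keratin of the hair follicle, 88.9%, 62.0%, 81.6% and 76.6%, with Mixed-2 the lowest in both. Rbm44 read 85.5%, 60.6%, 69.7% and 76.4%, and its 3 CpGs printed above kept the order of falling level towards the TSS in each mouse. Gm51263, a predicted gene, had B6-2 as the highest mouse with 59.5% and B6-1 as the lowest with 30.04%, Olfr523 had 84.3% in Mixed-1 against 58.6% in B6-1, and Atp13a4, a cation transporter, had 55.0% in Mixed-2 against 30.8% in B6-1.

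**Figure D5:**
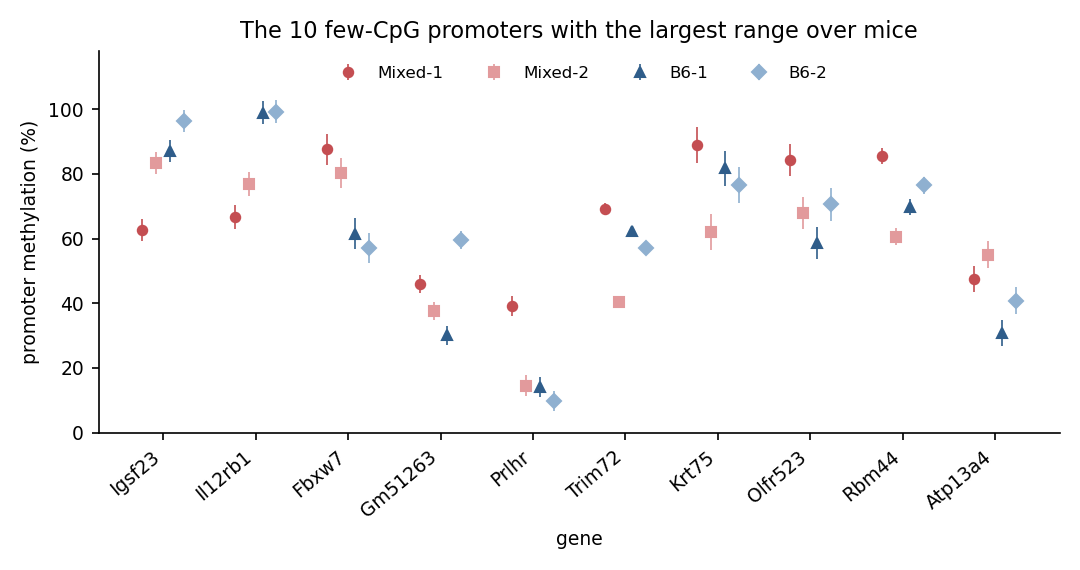
Methylation of the 10 few-CpG promoters with the largest range over the mice, 1 symbol per mouse, with bars of 1 counting SD (the mean over the mice). In Igsf23, Il12rb1, Fbxw7, Prlhr and Atp13a4 both Mixed mice lie on 1 side of both B6 mice, and in the other 5 the strains overlap.

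Il12rb1, a subunit of the receptors of interleukins 12 and 23, is the case in which the strain test came closest to a call, with 66.7%, 76.9%, 98.9% and 99.2%. The whole difference came from 1 of its 3 cytosines, in an intron 473 bp downstream of the TSS. There 0 of 18 reads were methylated in Mixed-1, which allows up to 16.7%, 4 of 13 in Mixed-2 (30.8%, 95% Wilson interval 12.7 to 57.6%), 32 of 32 in B6-1 and 44 of 44 in B6-2. The other cytosines, 17 bp before and 24 bp after it, averaged 100% in both Mixed mice, 98.3% in B6-1 and 98.8% in B6-2. A read of T at this position is the same for an unmethylated C and for a base that is T in the DNA, so these cannot be told apart at this cytosine.

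Strain differences were tested at all 12489 promoters with 3 or more common cytosines, by a logistic model of methylated and unmethylated reads with overdispersion moderated with limma. A call needed an adjusted p (Benjamini-Hochberg, over the 12489) below 0.05 and at least 10 points between the strain means. The model called 2 of 12489 promoters (0.0160%), and 0 of the 1316 few-CpG promoters were among them. At an unadjusted p under 0.05 and 10 points or more there were 20, where 0.240% of all promoters passed. Il12rb1 came closest, with a Mixed minus B6 difference of -27.3 points and an adjusted p of 0.0848 in this model, and was called in 7 of the alternatives, with adjusted p from 0.00743 to 0.0389 in 6 of these and 1.17e-11 in the Fisher test. For 3 of the 6 a mouse was left out, so that 1 strain had a single mouse, which was assumed to vary like those of the other strain. With the replicate block it was the 1 few-CpG promoter called, against 0.0240% of all promoters. Limma on log2 ratios of reads called 0, with 3 at an unadjusted p under 0.05 and 10 points or more (0.0400% of all promoters), and a Fisher test after summing the reads of each strain, which takes no account of how mice of a strain differ, called 25 (17 higher in Mixed and 8 lower), against 0.280% of all promoters. Over the whole set, Mixed minus B6 was 0.309 points (two-sided exact permutation test of 2 against 2 mice, p = 0.333, the smallest possible).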

How the data were processed

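ERRBS libraries of 4 livers were read from the deposited files, 1 per mouse. According to the study's methods, the authors digested the DNA (with MspI, per the labels), treated it with bisulfite and mapped the reads to mm10 with BSMAP, whereas the submitters' processing notes name Bismark and SAMtools. The authors deposited, per cytosine and strand, the coverage as a count of reads, not normalized and never under 10, and the percent of reads that were C or T. At 0.340% to 0.835% of the few-CpG cytosines of a mouse some reads had other bases. Methylated reads were computed from percent and coverage. Sites were placed on GRCm38.p6 with its RefSeq annotation, and all 1253673 common autosomal sites fell on a reference CpG.

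Groups came from the sample titles. The numbers 1 and 2 are the only source of a pairing, and deviations of same-numbered mice had a correlation of -0.00112 over the members, so the block was used only as an alternative. Tables were made in Python 3.11.15 (pandas 2.3.3, numpy 2.4.6, scipy 1.17.1) and plots in matplotlib 3.10.9. The strain model used R 4.3.3 and limma 3.58.1. It was tested on simulated data, and after that test overdispersion was moderated along a trend with the number of informative reads, over promoters with at least 20 reads of the rarer state. All p-values but those of the Fisher test take the mouse as the replicate.

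Named genes were, by rule, the 3 lowest and 3 highest of each list, the 5 highest and 5 lowest promoters, the 8 closest to 50%, the 10 largest ranges, any strain-variable promoters, and the 5 methylated with most and 5 unmethylated with fewest CpGs. Sequences, gene name families, exon numbers and other start sites were chosen after the values were seen. The members, lists and rules were chosen with earlier results of these data known. Alternatives changed the coverage, averaging, strands, repeats, window, start site, neighbours, bounds and tests. The RNA sequencing and other tissues of the study were not used here.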

Additional observations from a re-analysis of the deposited data

How the results depend on the processing

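Of 127 recomputed values, 116 kept their direction and side of the threshold or stayed within 1.5 times the count, and 0 reversed. The exact tests could not reach 0.05 with 4 mice, so their p-values say nothing about stability. The count of strain-variable few-CpG promoters, 0 in the model as reported, was 1 with the replicate block, 1 without soft-masked cytosines, 1 with a window of 1000 bp and 25 with a Fisher test on pooled reads. It was 0 to 1 with 1 mouse left out, 0 without Mixed-1 and 1 without each of the others, where a strain of 1 mouse was assumed to vary like the other strain. In each of these but the Fisher test the promoter was Il12rb1. The model without a trend, an alternative chosen after seeing the data, called 0, which says nothing about stability, since it also could not find the changes put into simulated data. The count of promoters with a range of 10 points or more was 238 as reported, 115 of the 832 with 5 to 8 cytosines, 30 at 20 points and 157 to 177 with 1 mouse left out. Fewer promoters, a stricter bound and fewer mice lower it by construction. The difference between few-CpG and CpG-richer promoters was 25.6 points and ranged from 7.62 (30 to 59 CpGs, a band chosen after seeing the data in which the few-CpG promoters lie more often at 30 to 39) to 33.5 points (window of 1000 bp), and the difference between genes of other tissues and of hepatocytes from 35.6 to 40.6. Downstream minus upstream cytosines fell from the reported 1.798 to 0.496 points with a window of 1000 bp, and the difference in methylated shares from 13.8 to 6.49 points with bounds of 10% and 90% and rose to 20.99 points with the wider window. The numbers 1 and 2 of the mice gave no sign of pairing, since deviations of same-numbered mice had a correlation of -0.00112. Promoters with few reads in the Mixed mice limit the precision of single values.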
